A study of Mus musculus with 12 samples.

Results

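The TRAV9 family of mouse T cell receptor alpha chain V genes, known under an older nomenclature as V alpha 3, is the subject of these results. Its members were chosen by name alone: productive alpha chain (TRA) contigs of called cells whose V gene name began with TRAV9-, TRAV9D- or TRAV9N-, with each combination of V gene and CDR3 nucleotide sequence counted one time per library. This gave 1025 distinct TRAV9 chains of 9383 distinct alpha chains, carried by 1087 of 8974 cells with an alpha chain.

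The series sampled CD45+ immune cells, the leukocytes, from mammary tumours of Balb/c mice, and treated animals had received cyclophosphamide, an alkylating chemotherapy, with pexidartinib, which blocks the CSF1 receptor that macrophages need to survive, for 3 weeks. The labels carry this protocol for untreated samples too, and only their treatment status sets the groups apart. CTX, CTX2 and Combined were receptor libraries labelled treated (replicates 1, 4 and 3 of that group), and CSF1R was tied to the treated group through the number of its expression library. The labels of PBS2 (replicate 2) conflict, since its receptor library is labelled treated and the expression library paired with it untreated, so it was kept out of the comparison by treatment. PBS1 was tied to an untreated expression library (replicate 3 of that group). The library names are those of the deposited table, and the labels do not define the terms CTX, CSF1R, Combined and PBS. The labels give neither the animals behind a library nor their age, or a genotype beyond the strain. Every p-value of a test over libraries therefore reflects how far single libraries spread, which may be technical. P-values of Fisher's exact test within a library reflect counting error only.

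An alpha chain is built in the thymus by joining 1 of many V genes to 1 of many J genes, and the junction forms the CDR3, the loop that lies over the antigen peptide. J genes are numbered so that high numbers lie next to the V genes and low numbers next to the constant gene. A first join tends to use a V gene and a J gene near each other, and a later join on the same chromosome removes the first and takes a V gene further upstream and a J gene further downstream, so the J number of a chain carries a trace of how late it was made. Joining proceeds on both chromosomes, and for this reason many T cells carry a second alpha chain. The mouse V alpha cluster holds large duplicated blocks, whose gene copies carry the letters D and N, and the TRAV9 family has copies in each block. TRAV9 (V alpha 3) chains are known for residues in the germline loops that bias selection toward CD4 or CD8 T cells. The expression data needed to tell those lineages apart were not used here.

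RefSeq annotation of mouse assembly GRCm38.p6, which comes from another strain than Balb/c, lists 11 TRAV9 genes, all on chromosome 14, and the table named 4 of them. TRAV9D-1 (52792316 to 52792776) lies farthest from the J genes, 1362.69 kb upstream of TRAJ61, the J gene nearest the V genes. TRAV9N-2 (53203122 to 53203544) lies 951.883 kb and TRAV9N-4 (53294596 to 53295030) 860.409 kb upstream. TRAV9-4 (53676196 to 53676628) is the nearest of the 4, at 478.809 kb.

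The CDR3 of a TRAV9 chain opens with bases left from the germline V gene, and the third codon (bases 7 to 9) came in 3 common forms. These openings are shown because the valine and alanine forms cut across gene names and the leucine form had joined lower-numbered J genes on average. Over all chains the mean TRAJ number was 36.02 for the valine form, 36.06 for the alanine form and 24.1 for the leucine form. The capitals mark the third codon.
Valine form: tgtgctGTGagc
Alanine form: tgtgctGCGagc
Leucine form: tgtgctCTGagc
The valine codon was carried by 713 of the 1025 chains (69.6%), the alanine codon by 197 (19.2%) and the leucine codon by 55 (5.37%), with 60 chains (5.85%) showing another codon there. The forms are set by these codons alone, so a chain with another codon for the same residue counts among the 60. Among chains of the other TRAV families the same codons stood at 6.60%, 1.06% and 24.3%. In alpha chains these first codons usually come from the germline V gene.

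A gene name did not stand for a single form. TRAV9-4 held 165 chains of the valine form, 89 of the alanine form, 51 of the leucine form and 19 others. TRAV9D-1 held 300 of the valine form, 106 of the alanine form, 1 of the leucine form and 21 others. TRAV9N-2, with 158, 2, 3 and 15 chains, and TRAV9N-4, with 90, 0, 0 and 5 chains in the same order, were nearly all valine. The copies are close in sequence and were assigned against a reference of another strain, so values by gene name describe the names in the table and not single germline genes of Balb/c mice. Of 996 TRAV9 CDR3 sequences counted per library, 28 appeared under more than 1 TRAV9 name. In 11 of these both names occurred in a single cell, and the weaker contig had 2 or fewer UMIs in 11 of 11.

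TRAV9 ranked 2 to 4 among the families in 5 of the libraries and 7 in PBS1. In the 4 treated libraries, 58 of 419 distinct alpha chains in CTX (13.8%, 95% exact Clopper-Pearson interval 10.7 to 17.5), 56 of 518 in CTX2 (10.8%, 8.27 to 13.8), 97 of 857 in CSF1R (11.3%, 9.27 to 13.6) and 761 of 7040 in Combined (10.8%, 10.1 to 11.6) used it. PBS2 had 42 of 404 (10.4%, 7.60 to 13.8) and the untreated library PBS1 had 11 of 145 (7.59%, 3.85 to 13.2). The intervals, which cover counting error only, overlapped between all libraries. The mean share was 10.8% ± 2.0 (SD, n = 6), rank 3 of 21 families, after TRAV6 with 18.1% and TRAV7 with 11.2%. Combined supplied 761 of the 1025 members, so pooled counts mostly describe that library.

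**Figure D1:**
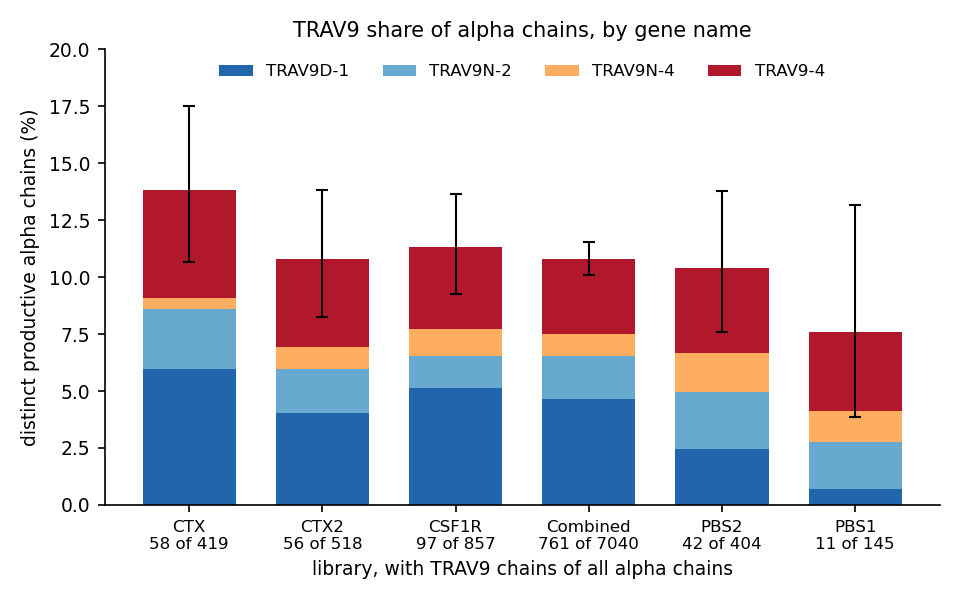
Share of distinct productive alpha chains that used TRAV9 in each library (percent), stacked by gene name. Bars span the 95% exact interval of the whole share, and the counts stand under each library. TRAV9-4 and TRAV9D-1 together made up most of each bar, and in PBS1 TRAV9D-1 was 1 of 11 chains.

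By treatment, the TRAV9 share averaged 11.7% ± 1.45 in treated libraries (SD, n = 4) and was 7.59% in the 1 untreated library. All 4 treated values lay above PBS1, by 4.11 percentage points on average, and the two-sided exact permutation test gave p = 0.2, the smallest it can give for 4 libraries against 1 (adjusted p = 0.333 over 5 measures). Counted per cell instead of per distinct chain, the direction turned, with a difference of -0.526 percentage points (p = 1, exact permutation test). A single TRAV9 clone of 12 cells in PBS1, described further on, enters that count.

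The other 4 measures by treatment gave no call either. The mean TRAJ number was 35.3 ± 1.05 in treated libraries and 34 in PBS1 (p = 0.6, adjusted p = 0.75, exact permutation test). The mean CDR3 length was 13.7 residues ± 0.193 in treated libraries and 13.7 in PBS1 (p = 1, adjusted p = 1, exact permutation test). Chains found in 2 or more cells made up 6.68% ± 6.75 in treated libraries and 18.2% in PBS1, where they were 2 of 11 chains, with p = 0.2 and adjusted p = 0.333 in the exact permutation test. Cells with a second alpha chain made up 24.3% ± 5.73 of TRAV9 cells in treated libraries and 9.09% in PBS1, with the same p and adjusted p in that test. In PBS1 these were 2 of 22 cells, and 12 of the 22 belonged to the single clone. In 1 of the 2 cells both alpha contigs were TRAV9N-2 with TRAJ37. With 1 untreated library no treatment difference could reach 0.05.

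The depth behind these values was uneven. The 6 libraries had 245 to 7629 called cells, 31178451 to 83903661 reads and 6807 to 121305 UMIs. A TRAV9 contig had a median of 4 UMIs in CTX, 5 in CTX2, 2 in CSF1R, 2 in Combined, 3 in PBS2 and 5 in PBS1, against 5, 6, 3, 3, 4 and 6 for contigs of the other families. The TRAV9 median was thus 1 UMI lower in 6 of 6 libraries. TRAV10 was lower in 6 of 6 as well, so that 15.4% of the 13 families with at least 3 chains in every library were lower throughout.

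TRAV9 chains were split unevenly among the gene names. TRAV9-4 supplied 35.7% ± 5.22 of the TRAV9 chains of a library, TRAV9D-1 33.6% ± 14.3, TRAV9N-2 19.6% ± 5.24 and TRAV9N-4 11.1% ± 5.46 (SD, n = 6 each). Over all libraries the counts were 324, 428, 178 and 95 chains in that order. The mean shares of the first pair of names did not differ beyond the spread between libraries, and TRAV9N-4 had the smallest mean share. TRAV9D-1 and TRAV9-4 had 25 and 20 chains in CTX, 21 and 20 in CTX2, 44 and 31 in CSF1R and 327 and 233 in Combined. The order was the reverse in PBS2, with 10 and 15, and in PBS1, with 1 and 5.

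The names also differed in the J genes they had joined. TRAV9N-4 chains averaged TRAJ number 29.0 in CTX (2 chains), 22.8 in CTX2 (5), 15.1 in CSF1R (10), 30.5 in Combined (69), 18.1 in PBS2 (7) and 22.0 in PBS1 (2). TRAV9N-2 chains averaged 41.2 in CTX (11 chains), 42.0 in CTX2 (10) and 40.4 in CSF1R (12). Their mean was 37.0 in Combined (132), 44.2 in PBS2 (10) and 39.7 in PBS1 (3). The highest library mean of TRAV9N-4 lay below the lowest of TRAV9N-2, so the library means of these names did not overlap. Single chains of both names nevertheless ranged over most of the J cluster. Several TRAV9N-4 means and the PBS1 mean of TRAV9N-2 rest on few chains. The mean of the library means was 22.9 ± 5.99 for TRAV9N-4 and 40.7 ± 2.40 for TRAV9N-2 (SD, n = 6 each).

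Against the other TRAV9 chains of the same library, TRAV9N-4 was lower in 6 of 6 libraries, with a mean difference of -14.3 TRAJ positions, and TRAV9N-2 was higher in 6 of 6, with a mean difference of 6.60. Such one-sidedness was common among single V genes: of 45 TRAV genes found in every library, 40% lay on one side of all other alpha chains in 6 of 6 libraries, 11 below and 7 above. TRAV9N-4 and TRAV9N-2 were among these, with mean differences of -12.6 ± 6.02 and 5.51 ± 2.48 (SD, n = 6). Libraries weigh alike in these means. In Combined, which held 69 of the 95 TRAV9N-4 chains and 132 of the 178 TRAV9N-2 chains, the names averaged 30.5 and 37.0. All TRAV9 chains of Combined averaged 35.2. Without Combined the mean differences from the other TRAV9 chains were -16.2 and 7.47. All of these are descriptions without a test.

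TRAV9D-1 and TRAV9-4 sat between these. TRAV9D-1 averaged 36.8 ± 4.59, with 37.3 in CTX, 32.8 in CTX2, 35.4 in CSF1R, 35.6 in Combined, 45.6 in PBS2 and 34 in PBS1, where it was 1 chain. TRAV9-4 averaged 35.8 ± 1.83, with 33.5, 38.6, 35.3, 34.9, 37.4 and 35.4 in the same order of libraries (SD, n = 6 each). The means of this pair differed by less than the spread between libraries.

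**Figure D2:**
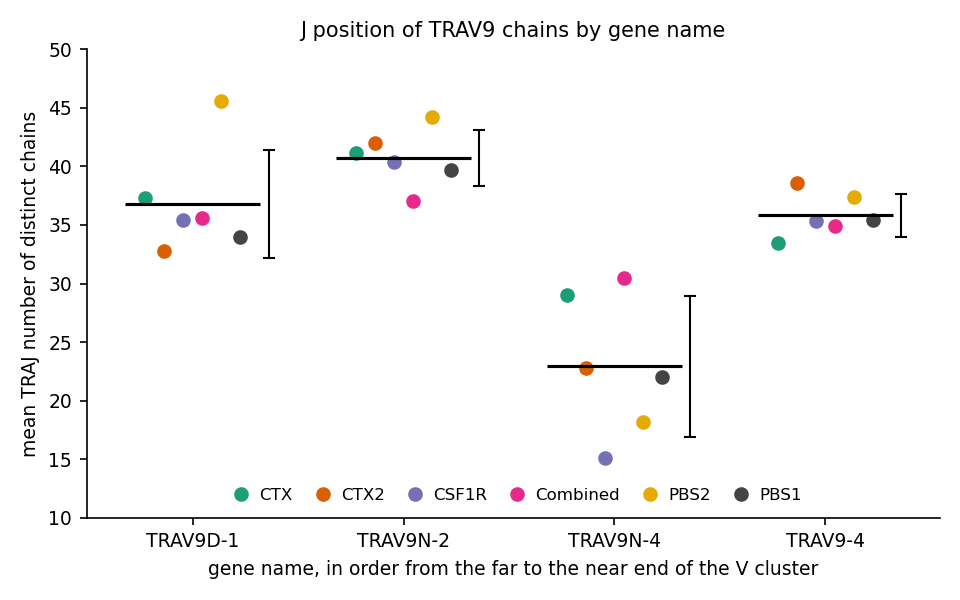
Mean TRAJ number of distinct chains (vertical axis) for each TRAV9 gene name (horizontal axis, from the far to the near end of the V cluster), 1 point per library, with the mean as a line and the SD as a bar (n = 6). TRAV9N-4 lies at a mean of 22.9 and TRAV9N-2, next to it among the names shown, at 40.7.

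In whole ranges rather than means, 37.9% of TRAV9N-4 chains had joined TRAJ20 or a lower number and 14.7% TRAJ47 or a higher one. For TRAV9N-2 these shares were 12.9% and 32.6%. The most frequent J genes of TRAV9N-4 were TRAJ12 and TRAJ18 with 7 chains each, both in the downstream part of the cluster, and those of TRAV9N-2 were TRAJ48 with 12 chains and TRAJ45 with 11.

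The order along the chromosome did not match the order in J number among the 4 names. Across the 4 names the correlation of distance to TRAJ61 with mean TRAJ number was r = 0.153, and TRAV9N-4 lies only a short way downstream of TRAV9N-2. Over the 55 TRAV genes with at least 20 chains the correlation was r = -0.536, so genes farther upstream had on the whole joined lower-numbered J genes. Both are given as descriptions, since genes share libraries and blocks of duplicated sequence. In that set of 55, TRAV9N-4 had the 7th lowest mean TRAJ number, TRAV9-4 the 30th, TRAV9D-1 the 32nd and TRAV9N-2 the 43rd.

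The third codon split the name TRAV9-4 along the same axis. The 51 leucine chains named TRAV9-4 had a mean TRAJ number of 24.5, against 38.4 for the 165 valine chains and 36.3 for the 89 alanine chains. TRAJ26 or a lower number was used by 56.9% of the leucine chains, 18.8% of the valine chains and 20.2% of the alanine chains. By library, the leucine means were 19.0 in CTX (3 chains), 26.9 in CTX2 (7), 24.2 in CSF1R (5), 23.8 in Combined (33), 40.0 in PBS2 (1) and 28.0 in PBS1 (2), against valine means of 42.9, 45.5, 39.9, 36.8, 40.4 and 48.5. The leucine mean was the lower in 6 of 6 libraries, by little in PBS2, where it rests on 1 chain. Against the alanine chains it was the lower in 4 of 6 libraries. This split was noticed in the data and has no test.

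**Figure D3:**
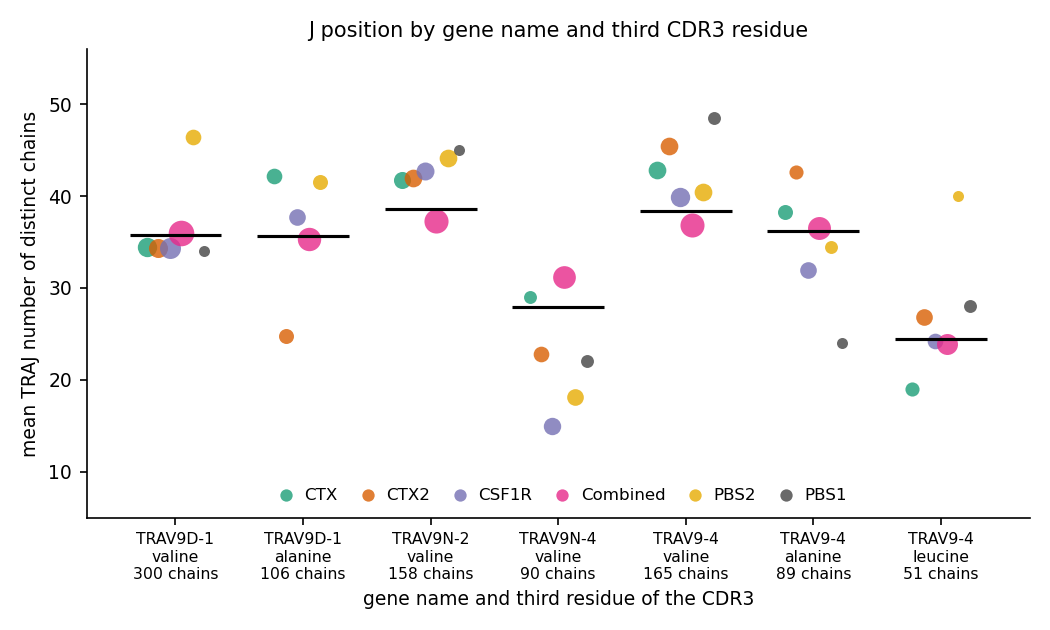
Mean TRAJ number of distinct chains (vertical axis) by gene name and the third CDR3 residue (horizontal axis), with 1 point per library sized by its number of chains and a line at the mean over all chains. The leucine chains named TRAV9-4 centre on 24.5 and the valine chains of the same name on 38.4.

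The codons after this opening differed as well. The longer valine opening tgtgctgtgagcGCG, with the fifth codon in capitals, was found in 84 TRAV9D-1 chains, 22 TRAV9N-4 chains and 11 TRAV9-4 chains. The opening tgtgctgtgagcATG was found in 41 TRAV9-4 chains and 36 TRAV9N-2 chains. The alanine opening tgtgctgcgagcATG was found in 23 TRAV9D-1 and 12 TRAV9-4 chains. Whether the fifth codon is germline or was added at the junction was not determined, since no germline sequence of this strain was at hand.

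As a whole, the family did not stand apart from other alpha chains in J use. The mean TRAJ number of TRAV9 chains was 36.4 in CTX, 35.6 in CTX2, 33.9 in CSF1R, 35.2 in Combined, 37.8 in PBS2 and 34 in PBS1, against 35.8, 35.5, 35.8, 36.0, 35.7 and 33.3 for the other families. TRAV9 was the higher in 4 libraries and the lower in CSF1R and Combined. The mean difference was 0.123 ± 1.38 TRAJ positions (SD, n = 6), with p = 0.84375 in a two-sided exact sign-flip permutation test over libraries and an adjusted p of 0.84375 over 6 measures. With 6 libraries the smallest p this test can give is 0.03125. Counting every cell in place of every distinct chain turned the difference to -2.48 (p = 0.09375, exact permutation test), and without PBS2 it was -0.261. Of 13 families with at least 3 chains in every library, 30.8% had a mean TRAJ number on one side of the others in 6 of 6 libraries (TRAV1, TRAV14, TRAV16 and TRAV7), and TRAV9 was not among them.

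TRAV9 chains used 42 of the 43 TRAJ genes in the table, from TRAJ2 to TRAJ58. The 5 with the largest mean share were TRAJ37 (6.5% ± 6.31), TRAJ52 (5.90% ± 3.60), TRAJ45 (5.82% ± 6.498), TRAJ34 (5.15% ± 6.64) and TRAJ22 (4.97% ± 2.78; SD, n = 6 each). Each of TRAJ37, TRAJ45 and TRAJ34 owed its mean in large part to PBS1, where 2 of 11 chains amount to 18.2%. For TRAJ37 these 2 were TRAV9N-2 contigs of a single cell, with 13 and 1 UMIs. Whether they are separate joins was not tested. TRAJ50 was used by 1.75% of TRAV9 chains and 3.93% of other chains and was lower in 6 of 6 libraries, as was TRAJ28 with 1 TRAV9 chain in all. These were 4.76% of the 42 TRAJ genes.

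Zones of the J cluster were used about alike. TRAJ47 to TRAJ58 was used by 29.1% ± 11.4 of TRAV9 chains and 31.2% ± 1.47 of the others, TRAJ34 to TRAJ46 by 28.5% ± 13.3 and 24.6% ± 2.01, TRAJ21 to TRAJ33 by 24.1% ± 4.01 and 24.2% ± 2.40, and TRAJ2 to TRAJ20 by 18.3% ± 5.14 and 20.04% ± 3.07 (SD, n = 6 each). In each zone the family differed from the others by less than its own spread between libraries.

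CDR3 length was alike in its centre. TRAV9 chains averaged 13.8 residues per library and other chains 13.7, a difference of 0.156 ± 0.293 that was positive in 4 of 6 libraries (p = 0.28125, adjusted p = 0.84375, exact sign-flip permutation test). PBS2 had the largest difference, with 14.3 residues in TRAV9 chains and 13.6 in other chains, and without it the mean difference was 0.0504. Of the 13 families, 38.5% were longer or shorter than the others in 6 of 6 libraries (TRAV13, TRAV16, TRAV4, TRAV6 and TRAV8). Lengths of 12 to 15 residues took in 87.1% of TRAV9 chains and 84.1% of the others, and 12 TRAV9 chains had 9 or fewer residues.

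**Figure D4:**
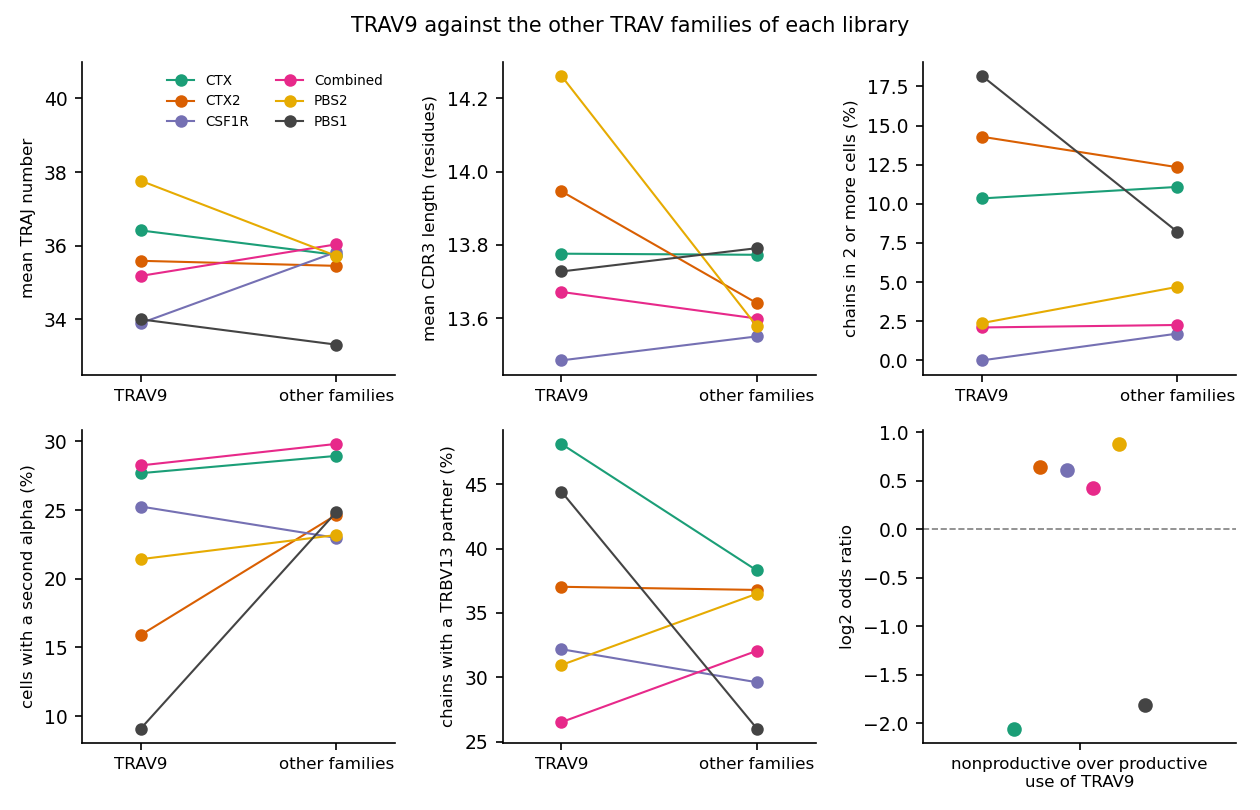
TRAV9 chains (left) and chains of the other families (right) in each library for mean TRAJ number, mean CDR3 length, chains in 2 or more cells (percent), cells with a second alpha chain (percent) and chains with a TRBV13 family partner (percent), 1 line per library. The last panel gives the log2 odds ratio of nonproductive over productive use of TRAV9, and in no panel do the 6 libraries share a direction.

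Beta chain partners were mixed. A beta chain (TRB) contig accompanied 974 of the 1025 TRAV9 chains, and 20 of the 22 TRBV genes in the table occurred as partners. The leading partner genes were TRBV13-2 (18.2% ± 13.1 of TRAV9 chains, 14.9% ± 1.97 of other chains), TRBV13-1 (10.2% ± 6.71 and 10.5% ± 1.99), TRBV5 (9.42% ± 3.12 and 9.11% ± 1.94), TRBV19 (9.14% ± 4.44 and 10.99% ± 2.10) and TRBV20 (8.35% ± 6.99 and 5.45% ± 2.18; SD, n = 6 each). For TRBV13-2 the higher mean comes from PBS1, with 44.4% of TRAV9 chains, since its share was lower than in other chains in 4 of 6 libraries and, over all chains together, 10.6% against 14.3%. TRBV20 likewise stood at 22.2% in PBS1 and at 7.08% against 7.40% over all chains together. None of the 20 partner genes, 0%, was higher or lower than in the other families in 6 of 6 libraries.

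The TRBV13 family, the largest set of beta partners, accompanied 36.5% of TRAV9 chains and 33.2% of other chains per library, a difference of 3.33 ± 9.36 percentage points that was positive in 4 of 6 libraries (p = 0.46875, adjusted p = 0.84375, exact sign-flip permutation test). PBS1 had the largest difference, 44.4% of 9 TRAV9 chains against 26.02% of other chains, and without it the mean difference was 0.313 percentage points. No family, 0% of 13, was on one side in all 6 libraries.

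TRAV9 chains carried by several cells were a minority in every library, and the largest sets of such cells were in CTX2 and PBS1. Chains in 2 or more cells numbered 6 of 58 in CTX, 8 of 56 in CTX2, 0 of 97 in CSF1R (which allows a share of up to 3.09%), 16 of 761 in Combined, 1 of 42 in PBS2 and 2 of 11 in PBS1. The library mean was 7.88% for TRAV9 and 6.72% for the other families, a difference of 1.17 ± 4.56 percentage points that was positive in CTX2 and PBS1 and negative in the other 4 libraries (p = 0.8125, adjusted p = 0.84375, exact sign-flip permutation test). Without PBS1 the difference was -0.594. No family, 0% of 13, lay on one side in all 6 libraries.

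The largest TRAV9 clone was in CTX2, where 19 cells, 1.82% of cells with an alpha chain (95% exact interval 1.10 to 2.83), carried TRAV9D-1 joined to TRAJ33 with the CDR3 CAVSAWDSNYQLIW. All 18 of these cells that had a beta chain shared 1 beta, TRBV13-2 with TRBJ1-6. TRAJ33 is also the J gene of the invariant receptor of mucosal-associated invariant T cells, which pair it with TRAV1. The second of CTX2, TRAV9N-2 with TRAJ58 and the CDR3 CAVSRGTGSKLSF, was in 7 cells, 7 of 7 with a single TRBV13-1 beta.

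PBS1 held the clone that weighed most in its library. There 12 cells, 6.38% of cells with an alpha chain (3.34 to 10.9) and 54.5% of all TRAV9 cells, carried TRAV9N-4 with TRAJ18 and the CDR3 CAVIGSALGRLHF, and 12 of 12 shared a TRBV13-2 beta with TRBJ1-4. TRAJ18 is the J gene of the invariant natural killer T cell receptor, which pairs it with TRAV11. The TRAV9 clone has another V gene and is not that receptor by the definition used here.

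The clone sequences are shown with the third codon in capitals, since each keeps the valine opening up to that codon.
CTX2, TRAV9D-1 with TRAJ33, 19 cells: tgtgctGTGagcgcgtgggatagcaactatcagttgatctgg
CTX2, TRAV9N-2 with TRAJ58, 7 cells: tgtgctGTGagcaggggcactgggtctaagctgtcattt
PBS1, TRAV9N-4 with TRAJ18, 12 cells: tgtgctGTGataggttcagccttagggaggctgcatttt
The PBS1 chain leaves the common opening directly after the third codon.

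Smaller sets led in CTX and Combined. In CTX, 4 cells carried TRAV9-4 with TRAJ2, split over 2 betas, and 3 cells carried TRAV9-4 with TRAJ31 (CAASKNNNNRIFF), an alanine form, with a single TRBV19 beta in 3 of 3. In Combined, 4 cells carried TRAV9N-2 with TRAJ43 (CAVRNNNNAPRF), and 4 of 4 shared the TRBV12-1 beta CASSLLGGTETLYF. The other leading chain of Combined, TRAV9-4 with TRAJ52 and the CDR3 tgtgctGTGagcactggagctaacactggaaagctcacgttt, was also in 4 cells, and these had 4 different betas. An alpha shared by several cells was therefore not always a clone.

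In CTX2, 7 of 7 TRAV9 chains found in 2 or more cells with a beta kept a single beta, and in CTX 4 of 6 did. In Combined, 1 of 15 kept a single beta and 14 of 15 had a different beta in every cell. The other families showed the same contrast, with a single beta in 36 of 51 chains in CTX2, 26 of 39 in CTX and 9 of 130 in Combined. Combined has the most cells and, with CSF1R, the fewest UMIs per alpha contig, and the part of either in this contrast was not tested.

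The same TRAV9 chains seldom recurred between libraries. Of 933 TRAV9 CDR3 amino acid sequences, 35 (3.75%) were found in 2 or more libraries, against 433 of 6971 (6.21%) for the other families. The other families are many and their sequences differ in number, so the shares are given side by side without a test. Of 11468 cell barcodes, 50 occurred in more than 1 library, and no TRAV9 chain was shared between libraries together with its barcode.

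In all, 3 CDR3s were found in 3 libraries, and in each the cells had different betas. The first, CAVSADYSNNRLTL with TRAJ7, had a single nucleotide form and a different TRAV9 name in each library, TRAV9-4 in CTX, TRAV9D-1 in Combined and TRAV9N-4 in PBS2. The second had 15 residues with TRAJ22, in CSF1R, Combined and PBS2, and the third had 15 residues with TRAJ56 and the name TRAV9N-2, in CTX2, Combined and PBS2. Each of these 2 had 2 nucleotide forms, which differ in a single base of the fifth codon. Capitals mark the third codon.
TRAJ7, 3 libraries: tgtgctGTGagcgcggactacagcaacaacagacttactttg
TRAJ22, CSF1R and PBS2: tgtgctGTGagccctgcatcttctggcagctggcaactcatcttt
TRAJ22, Combined: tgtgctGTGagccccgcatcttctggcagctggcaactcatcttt
TRAJ56, CTX2 and PBS2: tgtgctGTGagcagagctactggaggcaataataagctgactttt
TRAJ56, Combined: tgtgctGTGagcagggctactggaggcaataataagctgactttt
The first form with TRAJ22 was also found in Combined, under the name TRAV9N-2. All were the valine form, and no exact pair of alpha and beta CDR3 occurred in 2 libraries.

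A near match on both chains was found between CTX2 and CTX. In CTX2, 4 cells of 1 beta clone, TRBV31 with TRBJ1-1 and the CDR3 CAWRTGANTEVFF, carried TRAV9D-1 joined to TRAJ13, with the alpha CDR3 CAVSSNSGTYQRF in 3 cells and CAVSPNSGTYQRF in 1. In CTX, 1 cell carried the same beta residues and TRAV9D-1 with TRAJ13 and the CDR3 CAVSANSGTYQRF. The 3 alpha sequences differed in bases 12 and 13 only, and the betas of the 2 libraries differed in base 18 only, counted from the first base of the CDR3. Capitals mark those bases.
Alpha, CTX2, 3 cells: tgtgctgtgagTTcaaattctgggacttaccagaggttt
Alpha, CTX2, 1 cell: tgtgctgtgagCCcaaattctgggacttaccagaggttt
Alpha, CTX, 1 cell: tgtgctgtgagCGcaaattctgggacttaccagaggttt
Beta, CTX2: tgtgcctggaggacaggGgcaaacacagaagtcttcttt
Beta, CTX: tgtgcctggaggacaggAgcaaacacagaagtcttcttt
Both libraries are labelled treated. Of 977 beta CDR3s seen with TRAV9, 2 (0.205%) occurred with TRAV9 in 2 libraries, against 42 of 6772 (0.620%) for the other families, and 1 of those 2 kept the same TRAV family and J gene, against 10 among the other families. The other of the 2 was a TRBV5 beta with TRBJ2-1, seen with TRAV9-4 and TRAJ53 (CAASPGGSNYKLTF) in CTX2 and with TRAV9N-2 and TRAJ45 in PBS2. The sets of beta CDR3s differ in size, so their shares are given side by side without a test. The near match on both chains was chosen after its values were seen, and it has no test.

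The frequency of second alpha chains in TRAV9 cells differed from that of other cells by less than the spread between libraries. Cells with a second productive alpha chain of another CDR3 were 18 of 65 TRAV9 cells in CTX, 14 of 88 in CTX2, 24 of 95 in CSF1R, 219 of 775 in Combined, 9 of 42 in PBS2 and 2 of 22 in PBS1. The mean share was 21.3% for TRAV9 and 25.7% for the other families, where each cell entered under each family it carried, so that cells with 2 chains weigh alike on both sides. The difference of -4.47 ± 6.60 percentage points was negative in 5 of 6 libraries, all but CSF1R (p = 0.15625, adjusted p = 0.84375, exact sign-flip permutation test). With high-confidence contigs, with 2 or more UMIs and with the top alpha contig of a cell the difference was -5.26, -5.38 and -5.50, negative in 6 of 6 libraries. Each gave p = 0.03125, the smallest this exact permutation test can give, and an adjusted p of 0.1875. With the top contig, a cell was filed only under its alpha chain with most UMIs. Among the 261 distinct pairs described below that was TRAV9 in 84 and the companion in 133, so a negative difference was partly built into this count. TRAV9 contigs had fewer UMIs at the median in 6 of 6 libraries, and the part of this in the UMI minimum was not tested. With all contigs, the difference without PBS1 was -2.21. The largest differences were in PBS1 and CTX2, the libraries with the largest TRAV9 clones, and the part of these clones was not tested. With all contigs of called cells counted, no family, 0% of 13 and TRAV9 included, lay on one side in all 6 libraries. The other families were not examined under the alternatives in which TRAV9 was negative in 6 of 6.

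The J genes of both alpha chains of a cell lay near each other. Among 261 distinct pairs the TRAJ numbers differed by 9.90 on average and 67.05% differed by 10 or fewer positions. The correlation was r = 0.576 over all pairs, 0.499 in CTX (16 pairs), 0.610 in CTX2 (12), 0.680 in CSF1R (24), 0.544 in Combined (198) and 0.842 in PBS2 (9). In cells with 2 alpha chains and no TRAV9, 1004 pairs differed by 10.5 positions on average, with 60.9% within 10 and r = 0.531. These correlations are over cells that share libraries and are descriptions. The TRAV9 chain had more UMIs than its companion in 84 pairs and fewer in 133, and 2 pairs were of TRAV9 with TRAV9. Both contigs used TRAJ37 in the pair of PBS1 (13 and 1 UMIs) and TRAJ6 in that of Combined (1 and 1). Whether either pair is a single join called more than 1 time was not tested.

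**Figure D5:**
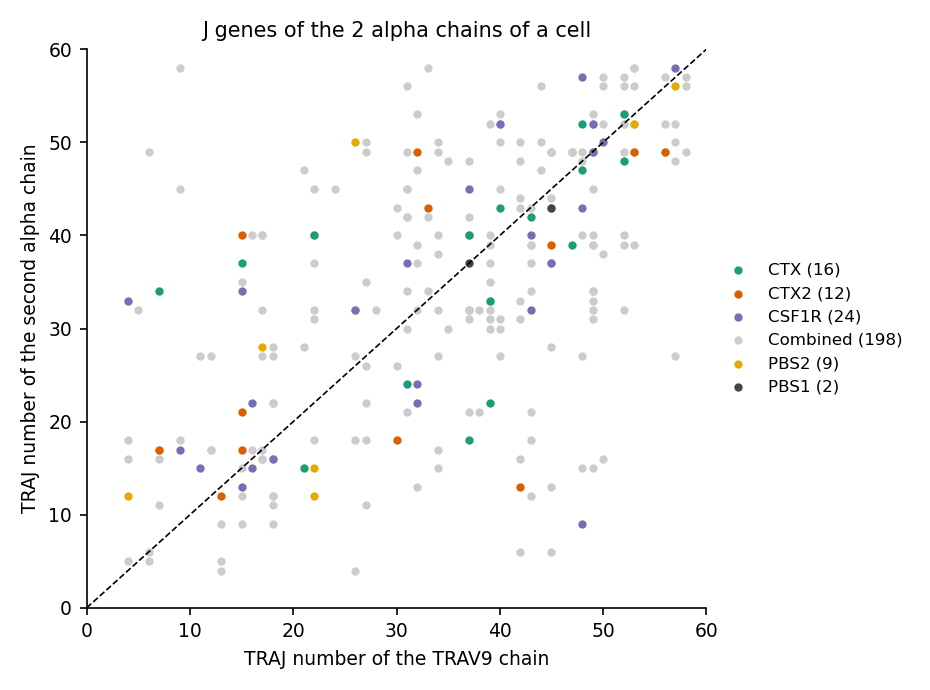
TRAJ number of the TRAV9 chain (horizontal axis) and of the second alpha chain (vertical axis) in 261 distinct pairs, coloured by library with the number of pairs in the legend. The dashed line marks equal numbers, and 67.05% of pairs lie within 10 positions of it.

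The share of TRAV9 among nonproductive rearrangements, which are out of frame or hold a stop, lay above its productive share in some libraries and below it in others. They were 1 of 39 distinct nonproductive alpha rearrangements in CTX, 7 of 46 in CTX2, 8 of 51 in CSF1R, 45 of 324 in Combined, 5 of 30 in PBS2 and 0 of 20 in PBS1, which allows a share of up to 15%. The log2 odds ratio of nonproductive over productive use averaged -0.219 ± 1.34 (SD, n = 6), positive in 4 libraries and negative in CTX and PBS1 (p = 0.6875, adjusted p = 0.84375, exact sign-flip permutation test). Without CTX it was 0.148, and without PBS1 it was 0.0988. Fisher's exact test within libraries, which reflects counting error only, gave adjusted p-values of 0.252 to 0.364. Its lowest unadjusted p was 0.0445, in CTX. Of the 13 families, 15.4% lay on one side in 6 of 6 libraries (TRAV12 and TRAV16).

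The gene names of the 66 nonproductive rearrangements were distributed differently from those of the productive chains. TRAV9-4 made up 35 of them, 53.0%, against 31.6% of productive chains, and TRAV9N-2 made up 20, 30.3%, against 17.4%. TRAV9D-1 made up 8, 12.1%, against 41.8%. By library, TRAV9-4 made up 1 of 1 nonproductive rearrangement in CTX, 3 of 7 in CTX2, 4 of 8 in CSF1R, 24 of 45 in Combined and 3 of 5 in PBS2. In CTX2, 2 of the 3 are the same join called from different starts. Counted a single time, TRAV9-4 made up 33.3% there, below its productive share of 35.7%, and 34 of 65 over all libraries, 52.3%. This comparison of names was made after the values were seen and has no test.

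One nonproductive TRAV9 rearrangement marked an expanded clone. In CTX2, 24 cells carried TRAV9-4 joined to TRAJ17 with a CDR3 whose deposited translation holds a stop. Of these, 23 of 23 with a beta belonged to 1 clone of 86 cells, TRBV13-2 with TRBJ2-4 and the CDR3 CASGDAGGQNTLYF. The productive alpha of 22 of these cells was TRAV7-1 with TRAJ22 (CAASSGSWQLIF). The unused TRAV9 rearrangement is shown with the opening of the leucine form in capitals, which begins at base 9 of the called CDR3.
CTX2, nonproductive, 24 cells: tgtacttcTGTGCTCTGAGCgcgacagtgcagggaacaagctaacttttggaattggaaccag
The same join, read from a later start, was called in 2 further contigs of this clone. This rearrangement is in no count of productive members.

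Few TRAV9 cells had a receptor contig of another lineage. Of 1087 TRAV9 cells, 1 also had an alpha chain of natural killer T cells (TRAV11 or TRAV11D with TRAJ18). An alpha chain of mucosal-associated invariant T cells (TRAV1 with TRAJ33) was found in 1, and an immunoglobulin contig in 1. A gamma or delta chain contig was found in 0, which by counting error alone allows a called share of up to 0.276%. T cell receptors were enriched with a kit, and which chains it captures was not examined. Counts of immunoglobulin, gamma or delta contigs therefore cannot show how many cells of those lineages were present. TRAV9 itself was joined to TRAJ18 in 28 chains and to TRAJ33 in 14. A beta chain was found in 1034 of the 1087 cells.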

How the data were processed

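The deposited table lists receptor contigs of single cells with the authors' read counts and UMI counts, whole numbers that are not normalized. Per the labels' protocols, cells were captured with a 5′ droplet kit and their T cell receptors enriched with a mouse kit. Per the submitters' processing notes, the tools and builds include Cell Ranger 3.0.2, mm10 and GRCm38. Contig calls, cell calls and gene names stand as deposited.

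Of 11 library names in the table, 6 could be tied to a sample and 5 were not used. Expression matrices were not analysed here. Only contigs of called cells entered, with no UMI minimum and with doublets kept. A cell's beta was its TRB contig of highest UMI count, and clones were defined within a library by TRBV gene and beta CDR3 nucleotides. Odds ratios had 0.5 added to each count. Intervals are exact at 95% and, like the limits of 3 counts for a count of 0, cover counting error only.

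TRAV9 was compared with other families by two-sided exact sign-flip tests over 6 libraries, and 4 treated with 1 untreated library by exact permutation, with Benjamini-Hochberg adjustment over 6 and over 5 measures. Alternatives were high-confidence contigs, 2 or more UMIs, no possible doublets, other ways of counting chains and clones, and leaving out libraries.

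The genes named are the TRAV9 names of the table, the 5 TRAJ and 5 TRBV genes with the largest mean share, the 2 TRAV9 chains in most cells of a library where at least 3 cells carried them, and CDR3s in 3 libraries. Members and lists were chosen with earlier results of these data known. Gene positions are from RefSeq, assembly GRCm38.p6, in which 77 of 77 TRAV names matched. Functions were tested on simulated data. Calculations ran in Python 3.11.15 with scipy 1.17.1, pandas 2.3.3, numpy 2.4.6 and, for figures, matplotlib 3.10.9.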

Additional observations from a re-analysis of the deposited data

Results flagged for a closer look

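Of 19 sets of library values examined for a single library far from the rest, 4 had one by Dixon's 95% limits, which chance alone passes in about 1 in 20 sets. The sets share libraries and are not independent. The TRAV9 share of CTX, 13.8%, stood apart from the other 3 treated libraries. The excess of TRAV9 over other families in chains found in 2 or more cells stood apart in PBS1, at 9.97 percentage points, where it rests on 2 of 11 chains. TRAV9-4 made up 45.5% of TRAV9 chains in PBS1, 5 of 11, above the other 5 libraries. The mean TRAJ number of TRAV9D-1 was 45.6 in PBS2, from 10 chains, above the other 5 libraries.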

How the results depend on the processing

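No adjusted p was 0.05 or lower in any setting. In the exact permutation tests over libraries, 3 unadjusted p-values were 0.05 or lower, all for second alpha chains (0.03125, adjusted 0.1875). They include the top contig count, into which a negative difference was partly built. Of all alternatives, 29 changed sign, 1 moved beyond the spread between libraries and 185 did neither. No paired analysis was possible because replicate numbers were given in accession order only, so an equal number does not pair libraries, and 1 library is untreated. The TRAJ difference of TRAV9 changed sign when each cell was counted (-2.48) and in the 2 libraries whose titles begin with JR (-0.36). Leaving out 1 library gave -0.261, without PBS2, to 0.534. For chains in 2 or more cells it changed sign when each cell was counted (-4.68), with the top alpha contig per cell (-0.726), by TRB clones (-4.08) and by deposited clonotypes (-3.47), and leaving out 1 library gave -0.594, without PBS1, to 1.86. The TRBV13 difference was -2.65 in the JR libraries. The log2 odds ratio of nonproductive use was 0.282 with high-confidence contigs, 0.159 when each cell was counted and 0.531 in the JR libraries, and -0.439 to 0.148 leaving out 1 library. By treatment, the CDR3 length difference was 0.101 with high-confidence contigs, 0.0897 with 2 or more UMIs, 0.00372 by family and CDR3, 0.364 when each cell was counted, 0.0232 with the top contig and 0.101 with PBS2 as treated, and -0.0833 to 0.0707 leaving out 1 library, with 0.0707 without CSF1R and 0.00834 without Combined. The share difference was -0.526 when each cell was counted, and the TRAJ difference was -0.611 with PBS2 as untreated. For the gene names, checked under alternatives added after seeing the data, r with locus position was -0.0852 in the JR libraries and the TRAV9N-2 difference from other TRAV9 chains was 9.86 when each cell was counted. The TRAV9-4 difference, 0.640 over all libraries, was -0.642 with 2 or more UMIs, -0.106 in the libraries named by number and -0.153, without CTX2, to 1.67 leaving out 1 library, and the TRAV9D-1 difference was -1.90 in the JR libraries, against 1.79 over all libraries. Counting the CTX2 join called from different starts a single time, also added later, gave a log2 odds ratio of -0.254. Called pairs of family and measure numbered 11 of 78 with 3 or more chains in every library. The causes were not tested. PBS1, with 11 TRAV9 chains, limits every comparison by treatment.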
